A study of Saccharomyces cerevisiae with 6 samples.

Results

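The ATG genes of budding yeast encode the core machinery of autophagy, and their transcript levels were compared between cells growing on sucrose and cells deprived of it. Members were taken by name alone, as the genes whose deposited name was ATG followed only by digits, which gave 32 of the 5113 genes listed. All 32 stood in the filtered count table of 5028 genes and all 32 passed the filter on low counts that left 5011 genes for testing. ATG6 and ATG24 stood in the tables under the names VPS30 and SNX4 and are described with the other genes of the pathway. ATG31, ATG39, ATG42, ATG43 and ATG44 were not analysed here.

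RNA-seq was performed on BY4741, a MATa laboratory strain of Saccharomyces cerevisiae, with 3 cultures per condition collected as biological replicates. The Sucrose cultures were in medium with 2% sucrose at an OD600 of 0.45 and were pelleted by centrifugation. The NoSucrose cultures had been filtered off the same kind of medium and then spent 16 min in medium whose carbon sources were 2% glycerol and 2% ethanol. Only the latter were filtered and moved to new medium, so the handling and the loss of sucrose cannot be told apart. The base medium was given as SC in the sample labels and as SC lacking tryptophan in the methods.

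The 6 libraries, made from poly(A) RNA, held 25106414 to 33651754 estimated counts, and members had between 86 and 14603 counts in a library. LEU2, MET17 and URA3, which the strain lacks, had 0 counts in every library, where a count of 0 allows up to 3, while HIS3, of which the strain lacks only part, had means of 104 CPM (counts scaled to a library of 1000000 by TMM factors) in Sucrose and 44.9 CPM in NoSucrose. The MATa pheromone receptor STE2 had a mean of 437 CPM in Sucrose and 204 CPM in NoSucrose. AGA2, the lowest of the MATa genes checked, had 44.3 and 33.8 CPM. Of the MATalpha genes, STE3 had 7.37 and 8.09 CPM, and MF(ALPHA)1 and MF(ALPHA)2 had at most 18 and 5 counts in any library. SAG1, also a MATalpha gene, had 28.35 and 33.45 CPM, near AGA2, so these 2 did not separate the mating types. Replicates of a condition differed by more than sampling noise, with chi-square values of 5.84 to 74.7 per degree of freedom. In the filtered table the gene names were displaced against the values, so rows were named through the unfiltered table, by the 1 gene there that carries the row's 6 values in any order. Of the unfiltered table's 6 headers, 4 held another library than the one they named, and the headers of the filtered table were used. The levels are shares of the poly(A) RNA of a whole culture, in which more transcript in every cell and much more in part of the cells cannot be told apart.

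Autophagy encloses cytoplasm, organelles or protein cargo in a double membrane, the autophagosome, which fuses with the vacuole, where its content is broken down. The Atg1 kinase complex starts the process at the phagophore, vesicles carrying Atg9 and a phosphatidylinositol 3-kinase build the membrane, and ubiquitin-like conjugation attaches Atg8 to it. In yeast growing on rich medium part of this machinery also runs the cytoplasm-to-vacuole targeting (Cvt) pathway, which delivers vacuolar hydrolases, and starvation for nitrogen is known to raise the transcripts of ATG8 and several other ATG genes.

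Promoter regions of ATG8, ATG29 and ATG41 are shown because these genes are among those with the largest increases described below. Each runs from 250 bases before the start codon to base 50 of the coding sequence and was read from RefSeq's R64 genome, the build used by the authors, on the strand of the gene. Capitals mark GGCGGC, the core of the URS1 site bound by the repressor Ume6, AGGGG, the stress response element of Msn2 and Msn4, and GATAAG, the site of GATA factors such as Gln3 and Gat1, each in either orientation. The ATG8 region lies at chrII:80682-80981 on the minus strand, the ATG29 region at chrXVI:237088-237387 on the plus strand and the ATG41 region at chrXVI:74670-74969 on the minus strand.
ATG8: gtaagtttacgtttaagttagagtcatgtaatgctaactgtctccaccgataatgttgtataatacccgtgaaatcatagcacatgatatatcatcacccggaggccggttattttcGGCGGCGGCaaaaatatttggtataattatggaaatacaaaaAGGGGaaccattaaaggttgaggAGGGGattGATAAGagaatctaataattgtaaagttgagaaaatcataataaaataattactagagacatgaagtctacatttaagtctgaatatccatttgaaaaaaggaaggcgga
ATG29: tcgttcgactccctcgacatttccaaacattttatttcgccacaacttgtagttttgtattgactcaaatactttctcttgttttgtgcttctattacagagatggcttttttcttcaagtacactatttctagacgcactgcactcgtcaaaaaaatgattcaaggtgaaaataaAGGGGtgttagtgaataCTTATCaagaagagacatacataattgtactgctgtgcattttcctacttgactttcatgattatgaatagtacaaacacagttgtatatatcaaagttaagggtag
ATG41: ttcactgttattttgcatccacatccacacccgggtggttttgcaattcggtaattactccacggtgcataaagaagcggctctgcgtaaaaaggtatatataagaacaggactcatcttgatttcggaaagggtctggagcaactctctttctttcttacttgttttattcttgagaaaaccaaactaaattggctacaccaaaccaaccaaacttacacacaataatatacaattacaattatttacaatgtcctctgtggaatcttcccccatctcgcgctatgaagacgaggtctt

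The ATG8 region held GGCGGC in 2 copies that overlap, starting 133 and 130 bases before the start codon, with AGGGG in 2 copies at 91 and 68 bases and GATAAG at 60 bases before it. The ATG29 region held AGGGG and, on the other strand, GATAAG, 74 and 57 bases before the start codon, and the ATG41 region held none of the 3 sequences. Among the 32 ATG regions GGCGGC was in 2 (6.25%), against 5.12% of the 6020 protein-coding genes of the nuclear genome. AGGGG was in 7 (21.9%), against 21.6% of all regions, and GATAAG was in 10 (31.2%), against 14.6%. Of the 17 ATG genes whose transcripts rose more than 2-fold, 2 (11.8%) held GGCGGC, 6 (35.3%) AGGGG and 6 (35.3%) GATAAG. Of the other 15, 0 held GGCGGC, 1 (6.67%) AGGGG and 4 (26.7%) GATAAG. The genes are few, and this split was not tested. These are matches of letters in a short window, not measured binding sites.

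After withdrawal of sucrose, 17 of the 32 ATG transcripts rose more than 2-fold and 0 fell more than 2-fold (edgeR's quasi-likelihood test, Benjamini-Hochberg adjusted p below 0.05). That is 53.1% of the ATG genes, where 12.7% of all genes tested rose and 6.03% fell by the same rule. DESeq2 gave the same counts of 17 and 0. Without a fold threshold, 27 ATG transcripts were higher and 1, ATG27, was lower, while 42.2% of all genes were higher and 39.8% lower. At an unadjusted p below 0.05 ATG27 was again the one member that was lower. In the same 27, every NoSucrose library was above every Sucrose library, which was so for 43.7% of all genes. The remaining 4, ATG13, ATG15, ATG5 and ATG11, did not pass the test and overlapped between conditions. The median log2 fold change over the ATG genes was 1.07, ranging from -0.37 to 3.61, beside a median of 0.03 over all genes tested.

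**Figure D1:**
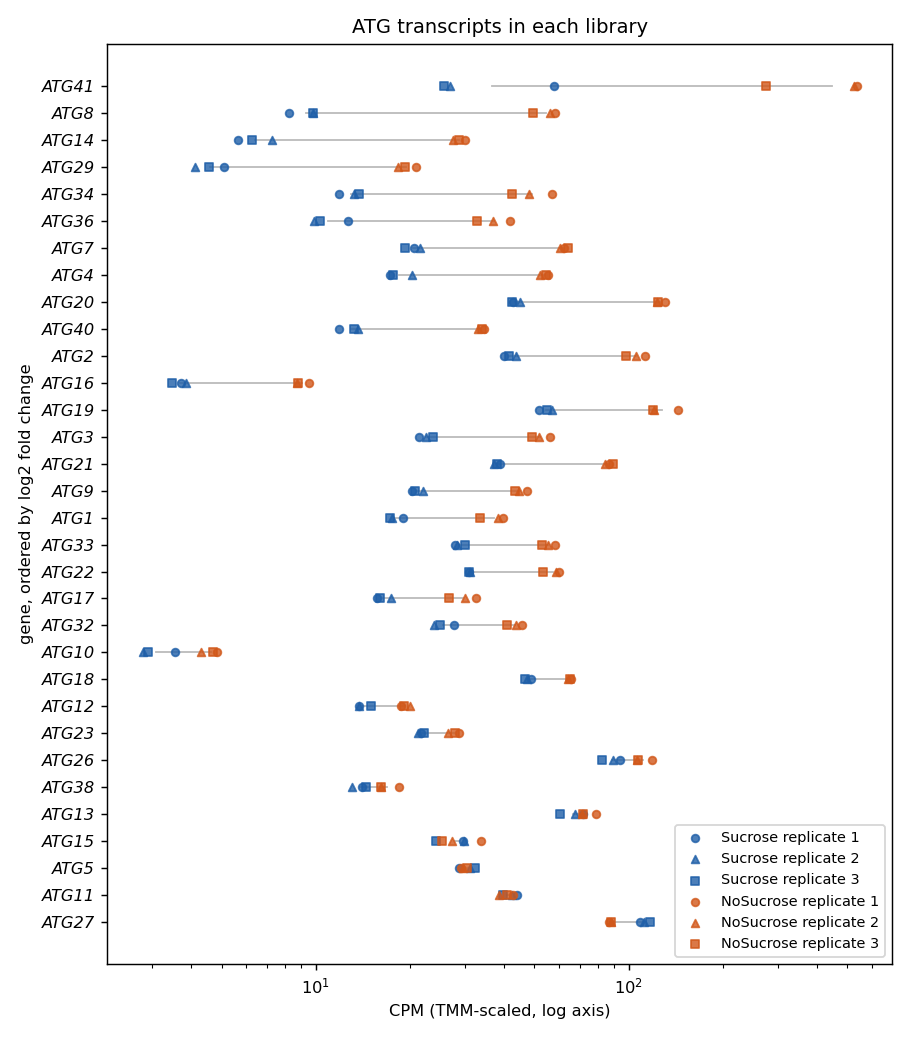
TMM-scaled CPM (x axis, log scale) of the 32 ATG genes (y axis, ordered by log2 fold change), with 1 point per library, shapes for replicates 1 to 3 and a grey line between the condition means. The NoSucrose points lie to the right of all Sucrose points in 27 genes, overlap them in ATG13, ATG15, ATG5 and ATG11, and lie to the left in ATG27.

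**Figure D2:**
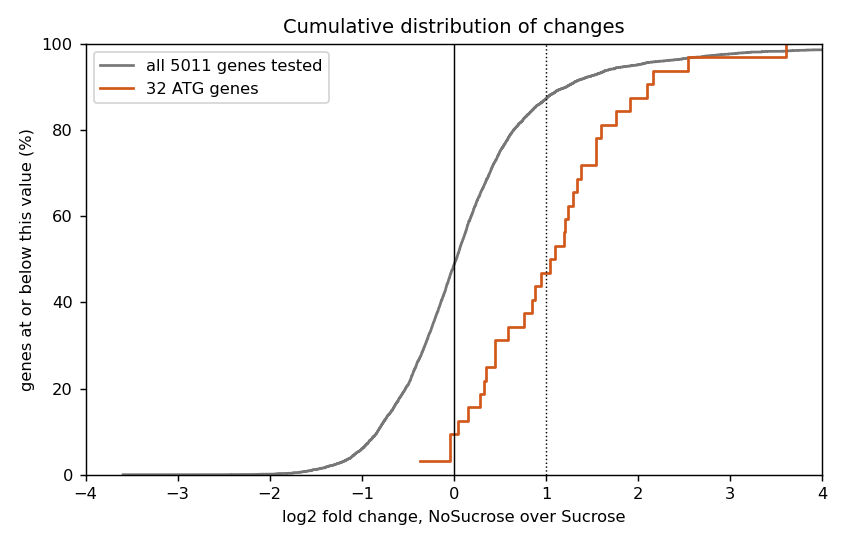
Cumulative share of genes (y axis, percent) at or below a log2 fold change (x axis, NoSucrose over Sucrose) for all 5011 genes tested and for the 32 ATG genes, with a dotted line at 2-fold. The ATG curve crosses its median at 1.07 and the curve of all genes at 0.03.

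The increases were spread over the steps of autophagosome formation. Of the genes for the Atg1 kinase complex, 2 of 5 rose more than 2-fold, as did 3 of 6 for Atg9 vesicles and lipid transfer, 1 of 2 for the phosphatidylinositol 3-kinase, 5 of 8 for conjugation, 4 of 6 for selective autophagy and 2 of 2 for PI3P binding and sorting nexins. Neither of the 2 genes acting in the vacuole did so, nor did the sterol glucosyltransferase ATG26. By the same rule 12.7% of all genes tested rose. Median log2 fold changes by role lay between 0.33 for ATG26 alone and 1.36 for the PI3P binding proteins and sorting nexins. ATG18, which also binds PI3P, was counted with the Atg9 vesicles instead, and its log2 fold change was 0.45.

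**Figure D3:**
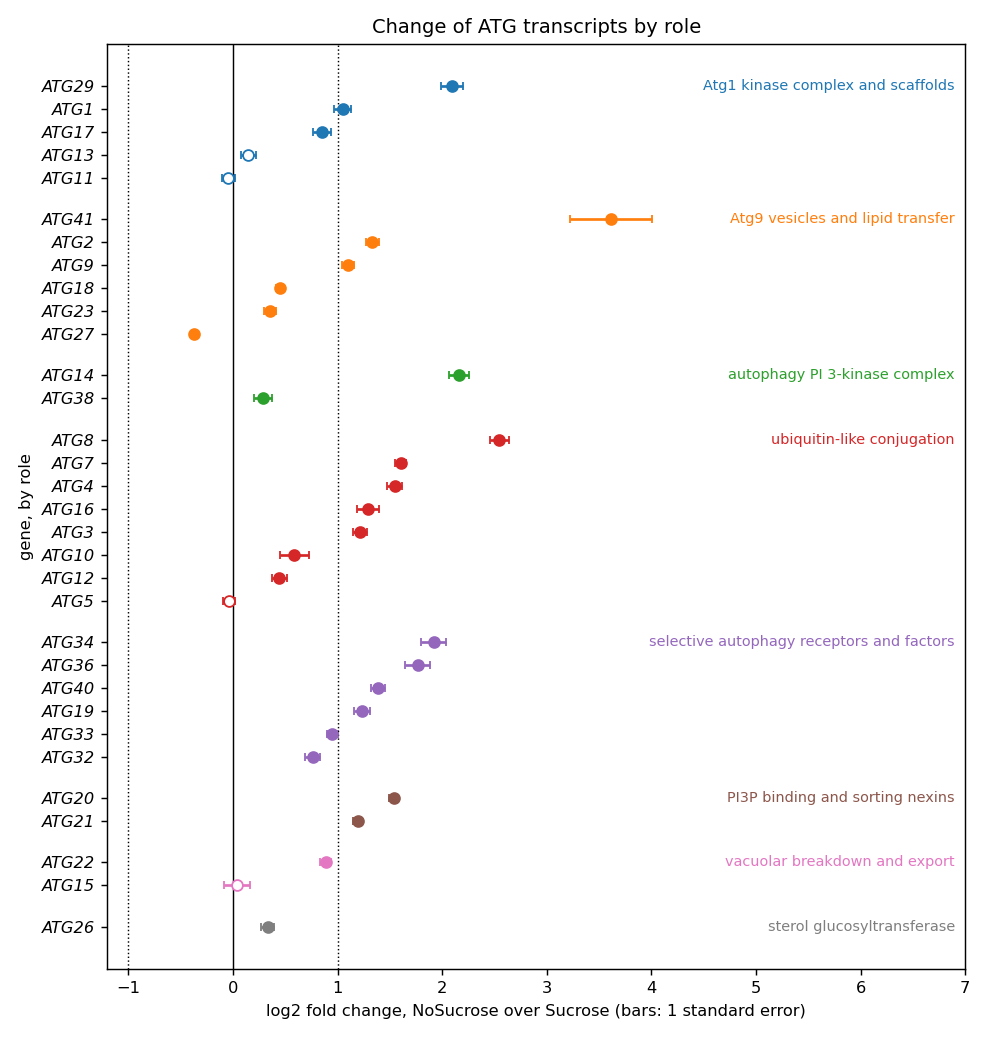
Log2 fold change of each ATG gene (x axis, NoSucrose over Sucrose) with 1 standard error, grouped by role (y axis), filled where the edgeR adjusted p was below 0.05 and open where it was not. Dotted lines mark 2-fold. ATG41 lies farthest right at 3.61, ATG27 is the one filled point left of 0, and ATG13, ATG11, ATG5 and ATG15 are open, of which ATG5 and ATG11 change sign under scaling by library size alone.

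Within the Atg1 kinase complex the 5 transcripts went from a more than 4-fold increase to no detectable difference. ATG29 (YPL166W, chrXVI:237338-237979), which with Atg17 forms part of the scaffold of the complex, had 5.09, 4.10 and 4.56 CPM in the Sucrose libraries and 20.9, 18.3 and 19.3 CPM in the NoSucrose libraries. Its log2 fold change was 2.10 (SE 0.10, edgeR adjusted p = 9.80e-07), and its promoter was printed above. ATG1 (YGL180W, chrVII:160065-162758), the kinase itself, had 19.0, 17.6 and 17.2 CPM in Sucrose and 39.6, 38.1 and 33.5 CPM in NoSucrose. The groups did not overlap, and its log2 fold change of 1.05 (SE 0.08, edgeR adjusted p = 7.55e-06) lay just over the 2-fold threshold. Without NoSucrose replicate 1 it was 0.997, which left 16 transcripts above 2-fold. ATG17 was higher with a log2 fold change of 0.85 (SE 0.09), so per kilobase of coding sequence its level went from 1.83 times that of ATG29 in Sucrose to 0.779 times in NoSucrose.

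The remaining transcripts of this group differed from these. ATG13, the regulatory subunit that TORC1 phosphorylates, had means of 66.5 ± 5.62 and 73.6 ± 4.18 CPM (SD, n = 3) with an edgeR adjusted p of 0.0797. It passed the threshold at a log2 fold change of 0.262 when libraries were scaled by size alone (adjusted p = 0.00832) and at 0.201 without Sucrose replicate 1 (adjusted p = 0.0288), and its adjusted p ran from 0.00832 to 0.240 over all alternatives. ATG11 (YPR049C), the scaffold of selective autophagy and the Cvt pathway, had 43.9, 42.4 and 39.7 CPM in Sucrose and 42.9, 38.5 and 40.9 CPM in NoSucrose. These ranges overlapped, and the log2 fold change of -0.04 (SE 0.06, edgeR adjusted p = 0.516) turned to 0.072 under scaling by library size alone. Per kilobase, ATG13 was at 4.50 times the level of ATG1 in Sucrose and 2.41 times in NoSucrose.

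Among the genes for Atg9 vesicles and lipid transfer, ATG41 had the largest change of the family and ATG27 the only decrease past the test. ATG41 (YPL250C, also known as ICY2, chrXVI:74309-74719), whose product binds Atg9 and takes part in autophagosome formation, had 57.6, 26.8 and 25.7 CPM in Sucrose and 536, 527 and 275 CPM in NoSucrose. Sucrose replicate 1 was 2.19 times the mean of the other Sucrose libraries and NoSucrose replicate 3 was 0.517 times the mean of the other NoSucrose libraries. The groups were still apart, since the smallest ratio between any NoSucrose and any Sucrose library was 4.78. The log2 fold change was 3.61 (SE 0.39, 12.2-fold, edgeR adjusted p = 5.74e-05), and it ran from 3.41 to 4.08 when each library was left out in turn. With Sucrose replicate 1 and NoSucrose replicate 3 left out together it was 4.34, a fold more than 1.5 times as large. Its coefficient of variation was 49.2% in Sucrose and 33.2% in NoSucrose, where the highest of any other member was 13.8% and 15.3% and the medians over members were 5.4% and 5.6%.

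ATG2, the lipid transfer protein that spans from the endoplasmic reticulum to the phagophore, had 40.1, 43.7 and 41.6 CPM in Sucrose and 112, 106 and 98.4 CPM in NoSucrose. The libraries of the conditions were far apart, with a log2 fold change of 1.33 (SE 0.06, edgeR adjusted p = 5.91e-07). ATG9 (YDL149W, chrIV:184925-187918), the transmembrane lipid scramblase of the vesicles, had 20.3, 22 and 20.8 CPM in Sucrose and 47.5, 44.5 and 43.2 CPM in NoSucrose, a log2 fold change of 1.10 (SE 0.06, edgeR adjusted p = 1.32e-06). ATG18, the PI3P-binding partner of Atg2, and ATG23, which acts with Atg27 in the traffic of Atg9, were higher by less, with log2 fold changes of 0.45 (SE 0.04) and 0.35 (SE 0.06). ATG27 (YJL178C, chrX:89282-90097), a membrane protein of the same traffic, had 109, 112 and 117 CPM in Sucrose and 86.3, 87.7 and 87.9 CPM in NoSucrose. Every NoSucrose library was thus below every Sucrose library, with a log2 fold change of -0.37 (SE 0.04, 0.775 of the Sucrose level, edgeR adjusted p = 4.45e-05).

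Both ATG-named subunits of the autophagy phosphatidylinositol 3-kinase were higher, by very different amounts. ATG14 (YBR128C, chrII:493081-494115), the subunit that directs the kinase to the phagophore, had 5.66, 7.25 and 6.25 CPM in Sucrose and 29.9, 27.4 and 28.7 CPM in NoSucrose. The log2 fold change of 2.16 (SE 0.10, edgeR adjusted p = 5.98e-07) was the third largest of the family. ATG38, which holds the complex together, had means of 13.9 ± 0.765 and 16.9 ± 1.33 CPM (SD, n = 3) and a log2 fold change of 0.29 (SE 0.09, edgeR adjusted p = 0.0140). Without Sucrose replicate 2 its adjusted p was 0.0575, the highest of the alternatives, which went down to 0.00223.

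Conjugation uses Atg7 to activate, and Atg3 and Atg10 to transfer, the ubiquitin-like proteins Atg8 and Atg12. Of its 8 genes, 7 were higher, beside 42.2% of all genes tested. ATG8 (YBL078C, chrII:80378-80731), whose product is joined to phosphatidylethanolamine and coats the growing membrane, had 8.23, 9.81 and 9.83 CPM in Sucrose and 58.1, 56.0 and 49.6 CPM in NoSucrose. The lowest NoSucrose library was several times the highest Sucrose library, and the log2 fold change was 2.55 (SE 0.09, 5.84-fold, edgeR adjusted p = 2.47e-07). ATG7 had 20.7, 21.5 and 19.3 CPM in Sucrose and 62.0, 60.6 and 64 CPM in NoSucrose, a log2 fold change of 1.60 (SE 0.05, edgeR adjusted p = 2.02e-07). ATG4, the protease that trims Atg8 and releases it from lipid, had 17.2, 20.3 and 17.7 CPM in Sucrose and 55.2, 52.1 and 54.4 CPM in NoSucrose, a log2 fold change of 1.55 (SE 0.07, edgeR adjusted p = 6.21e-07). For both, the 3 NoSucrose libraries lay close together and well above the Sucrose libraries.

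ATG3, the enzyme that transfers Atg8 to lipid, had 21.4, 22.6 and 23.7 CPM in Sucrose and 56.1, 51.7 and 49.0 CPM in NoSucrose, a log2 fold change of 1.21 (SE 0.07, edgeR adjusted p = 1.62e-06). ATG16, which binds the Atg12-Atg5 conjugate, had 3.72, 3.86 and 3.48 CPM in Sucrose and 9.51, 8.73 and 8.81 CPM in NoSucrose, a log2 fold change of 1.29 (SE 0.10, edgeR adjusted p = 1.09e-05). Both pairs of groups were apart, although ATG16 had among the fewest counts of the family. The remaining members of the Atg12 branch had smaller log2 fold changes. ATG10 had a log2 fold change of 0.59 (SE 0.14) and ATG12 one of 0.44 (SE 0.07). ATG5 (YPL149W), the acceptor of Atg12, had 28.7, 31 and 32.2 CPM in Sucrose and 29.2, 29.6 and 30.5 CPM in NoSucrose. All 3 NoSucrose values lay inside the Sucrose range, and the log2 fold change of -0.04 (SE 0.06, edgeR adjusted p = 0.529) turned to 0.074 under scaling by library size alone. Per kilobase, ATG8 stood at 1.04 times the level of ATG12 in Sucrose and at 4.48 times in NoSucrose.

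All 6 receptors and factors of selective autophagy were higher, and 4 rose more than 2-fold. Among all genes tested, 42.2% were higher and 12.7% rose more than 2-fold. ATG34 (YOL083W, chrXV:165714-166952), a receptor for the hydrolase Ams1 under starvation, had 11.9, 13.2 and 13.8 CPM in Sucrose and 57.1, 48.0 and 42.3 CPM in NoSucrose, a log2 fold change of 1.92 (SE 0.12, edgeR adjusted p = 2.84e-06). ATG19 (YOL082W), the receptor of the Cvt pathway, had 51.6, 56.8 and 55.0 CPM in Sucrose and 144, 121 and 120 CPM in NoSucrose, a log2 fold change of 1.23 (SE 0.08, edgeR adjusted p = 3.44e-06). Neither overlapped between conditions, and in both NoSucrose replicate 1 was the highest library. Per kilobase the level of ATG19 was 4.17 times that of ATG34 in Sucrose and 2.59 times in NoSucrose. No stretch of 31 bases of either coding sequence, or of any other of the 32, occurred elsewhere in the R64 genome.

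ATG36, the receptor for peroxisomes, had 12.7, 9.87 and 10.3 CPM in Sucrose and 41.6, 36.9 and 32.8 CPM in NoSucrose, a log2 fold change of 1.76 (SE 0.12, edgeR adjusted p = 4.70e-06). ATG40, a receptor for the endoplasmic reticulum, had 11.9, 13.7 and 13.2 CPM in Sucrose and 34.5, 33.0 and 34.1 CPM in NoSucrose, a log2 fold change of 1.38 (SE 0.07, edgeR adjusted p = 9.05e-07). The conditions were clear of each other in both. The genes that act on mitochondria stayed below 2-fold. ATG32, the mitochondrial receptor, had a log2 fold change of 0.76 (SE 0.07) and ATG33, a mitochondrial membrane protein needed for mitophagy, one of 0.95 (SE 0.06). ATG33 passed 2-fold under scaling by library size alone, which gave 18 transcripts above the threshold.

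ATG20, a sorting nexin that works with Snx4 in selective autophagy and endosomal recycling, had 42.7, 44.9 and 42.4 CPM in Sucrose and 131, 123 and 124 CPM in NoSucrose. The log2 fold change was 1.54 (SE 0.04, edgeR adjusted p = 1.00e-07), with little spread in either condition. ATG21, a PI3P-binding protein that helps to place Atg8 conjugation, had a log2 fold change of 1.19 (SE 0.04). In the vacuole, ATG22, an exporter of amino acids released by breakdown, was higher with a log2 fold change of 0.89 (SE 0.06), whereas ATG15, the lipase that opens autophagic bodies, had means of 27.9 ± 3.09 and 28.7 ± 4.39 CPM (SD, n = 3, edgeR adjusted p = 0.767). The sterol glucosyltransferase ATG26, which yeast autophagy is known not to need, had a log2 fold change of 0.33 (SE 0.06).

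Per kilobase of coding sequence, the order of the transcript levels also changed. Here and above, levels were divided by the full coding length, not by an effective length for sequenced fragments. Ranks and ratios between genes of unlike length, such as ATG8 with 354 bases and ATG27 with 816, are therefore approximate. ATG27 was the most abundant in Sucrose at 138 CPM per kb, followed by ATG41 at 89.3 CPM per kb and ATG33 at 48.3 CPM per kb, with ATG8 at rank 8 with 26.2 CPM per kb. In NoSucrose ATG41 led at 1086 CPM per kb, ahead of ATG8 at 154 CPM per kb, ATG27 at 107 CPM per kb and ATG19 at 103 CPM per kb. The last 2 differed by less than the spread of the ATG19 libraries in NoSucrose, whose coefficient of variation was 10.8%. ATG14 and ATG29 left the lower end, from 6.17 and 7.14 CPM per kb in Sucrose to 27.7 and 30.4 CPM per kb in NoSucrose. ATG5, which did not pass the test, went from rank 5 to rank 16 of 32, and ATG10 was the scarcest in both, at 6.13 and 9.16 CPM per kb.

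**Figure D4:**
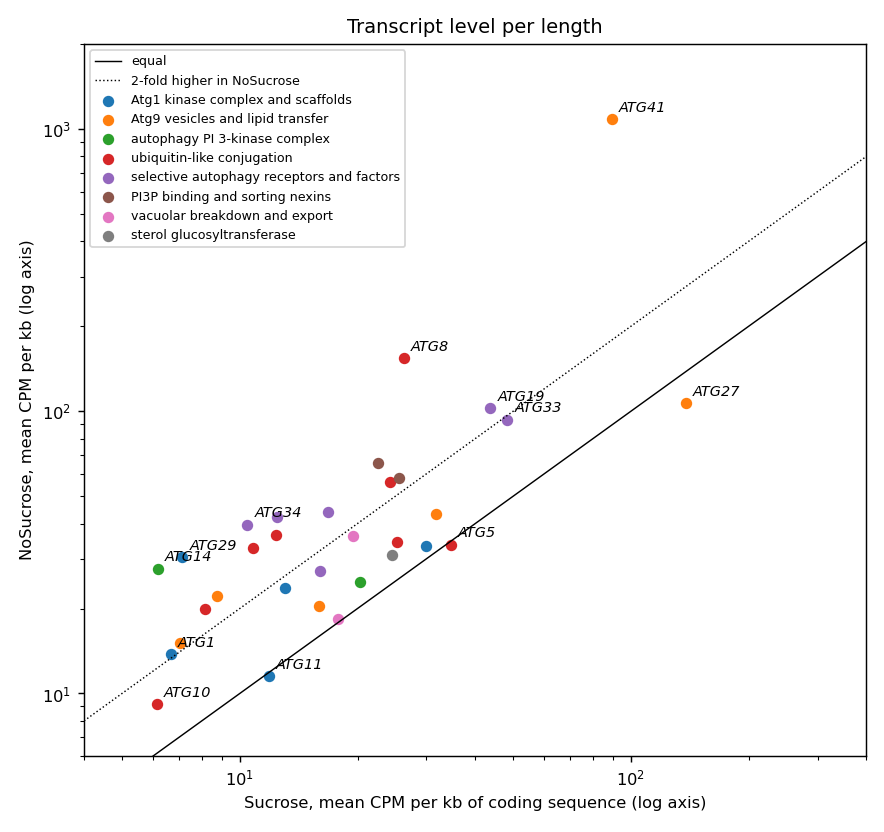
Mean TMM-scaled CPM per kilobase of coding sequence of each ATG gene in Sucrose (x axis) and NoSucrose (y axis), both on log scales, coloured by role. ATG41 and ATG8 stand highest above the line of equal level, ATG27 lies below it, and ATG5 and ATG11 lie close to it.

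The summed level of the 32 ATG transcripts was 969, 946 and 922 CPM in the Sucrose libraries and 2245, 2114 and 1837 CPM in the NoSucrose libraries. The difference of the mean log2 sums was 1.12, or 2.18-fold, and an exact two-sided permutation test over the 6 libraries gave p = 0.1, the smallest value that 3 against 3 can give. ATG41 made up 2.79 to 5.94% of the sum in Sucrose and 15 to 24.9% in NoSucrose. Without it the sum was 911, 920 and 896 CPM in Sucrose and 1708, 1587 and 1562 CPM in NoSucrose, a difference of 0.83 or 1.78-fold. ATG transcripts in all took 0.0882 to 0.0933% of the counts in Sucrose and 0.196 to 0.232% in NoSucrose.

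The replicates of NoSucrose also differed across the family. NoSucrose replicate 1 was the highest of its condition in 24 of the 27 transcripts that were higher and in 15 of the 17 above 2-fold. Replicates 2 and 3 were each the lowest in 13 of the 27. These counts were not made over all genes tested, so the order cannot be called particular to the ATG genes. The median log2 difference of the 32 transcripts from the Sucrose mean was 1.16, 1.08 and 0.97 for NoSucrose replicates 1, 2 and 3, so the replicates spread by far less than the difference between conditions.

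The other genes of the pathway, taken from lists set by function, had a lower median than the ATG genes. Of 58 tested, 8 (13.8%) rose more than 2-fold, 34 were higher and 10 lower at any fold (edgeR), with a median log2 fold change of 0.29. The share that rose was near the 12.7% of all genes tested, and the shares higher and lower at any fold are to be read against 42.2% and 39.8% of all genes, here and in the lists that follow. The partners of the phosphatidylinositol 3-kinase and the PI3P-binding proteins without an ATG name came nearest, as all 6 were higher with a median of 0.94. SNX41 and SNX4, sorting nexins of which the latter pairs with Atg20, had log2 fold changes of 1.27 (SE 0.05) and 1.15 (SE 0.04), and SNX4 had 45.9, 50.3 and 48.5 CPM in Sucrose against 105, 110 and 107 CPM in NoSucrose. HSV2, a homologue of Atg18, had one of 1.08 (SE 0.07). The catalytic subunit VPS34 was higher by only 0.29 (SE 0.05), and VPS30, the Atg6 subunit, by 0.79 (SE 0.06).

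Cargo and vacuolar enzymes held single large changes among small ones. AMS1, the alpha-mannosidase carried by Atg19 and Atg34, had 10.8, 17.2 and 17.6 CPM in Sucrose and 58.0, 43.8 and 36.2 CPM in NoSucrose, a log2 fold change of 1.58 (SE 0.22, edgeR adjusted p = 0.000242), while APE4, an aspartyl aminopeptidase and also Cvt cargo, was higher by 0.49 and CUE5, a ubiquitin-binding receptor, by 0.38. Of 7 vacuolar hydrolases only PRB1, protease B, rose more than 2-fold, from 169, 180 and 159 CPM to 619, 579 and 506 CPM, a log2 fold change of 1.75 (SE 0.09, edgeR adjusted p = 9.48e-07). Another 4 were higher by less, and CPS1, carboxypeptidase S, had a log2 fold change of -0.02 (edgeR adjusted p = 0.780) that changed sign under scaling by library size alone. Of 14 genes for fusion with the vacuole, 8 were higher and 3 lower, and 1 (7.1%) rose more than 2-fold, beside 12.7% of all genes. They ran from -0.62 for the SNARE YKT6 to 1.17 for the SNARE VTI1.

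The upstream lists are short, and their counts stand beside 42.2% higher and 39.8% lower among all genes tested. Of 8 genes for the GTPase Ypt1 and its activator TRAPPIII, 2 were higher and 3 lower, with the core subunits TRS23 at 1.18 (SE 0.06) and TRS20 at -0.68 (SE 0.06) on the log2 scale. TORC1 is the kinase complex that restrains autophagy in fed cells. Of 10 genes for TORC1, its regulators and its targets, 5 were higher and 2 lower. In this list 1 (10.0%) rose more than 2-fold, again beside 12.7% of all genes. LST8, a TORC1 subunit, had 45.6, 47.5 and 47.0 CPM in Sucrose and 210, 207 and 122 CPM in NoSucrose, so that NoSucrose replicate 3 was again below the other replicates, and a log2 fold change of 1.94 (SE 0.20, edgeR adjusted p = 3.88e-05). SCH9, the kinase that TORC1 activates, was lower, with a log2 fold change of -0.78 (SE 0.04). Of 10 regulators of ATG transcription and mRNA decay, 5 were higher and 2 were lower (edgeR), all by less than 2-fold. Among all genes 42.2% were higher and 39.8% lower, and 10 genes are too few to be told apart from these shares. They ran from -0.72 (SE 0.07) for GCN4, the activator of amino acid synthesis genes, to 0.71 (SE 0.08) for the RNA helicase DHH1, and UME6, the repressor of ATG8, was at 0.46 (SE 0.06).

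**Figure D5:**
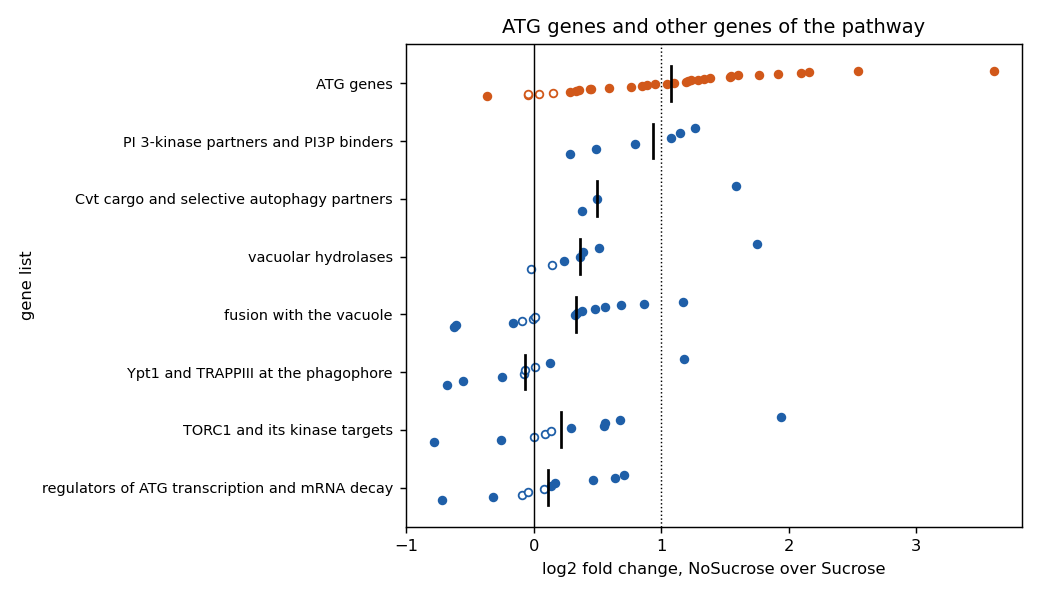
Log2 fold change (x axis, NoSucrose over Sucrose) of the 32 ATG genes and of the other genes of the pathway in 7 lists (y axis), with 1 point per gene, filled where the edgeR adjusted p was below 0.05, and a black bar at the median. The medians are 1.07 for the ATG genes, 0.94 for the partners and PI3P binders and at most 0.49 for the other lists.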

How the data were processed

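RNA-seq was analysed for 3 Sucrose and 3 NoSucrose cultures, grouped by their sample labels. The authors trimmed reads with Flexbar 3.5, discarding short and low-quality reads, and used Salmon 1.4.0 with decoys to assign them to R64-1-1 transcripts. They deposited estimated counts per gene (expected counts, not normalized) before and after a filter on low counts, and their methods then apply TMM and edgeR. Library preparation kept strand, and how strand entered the quantification is not given in the sources used here.

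Each of the 5028 rows of the filtered table matched exactly 1 gene of the unfiltered table by its 6 values. Its headers were checked on the 1999 genes of a copy of the study's count table, all identical in every library. Rounded counts passed through filterByExpr, with 15 as its min.count and 20 as its min.total.count. TMM factors ran from 0.957 to 1.06. Condition alone was fitted in edgeR 4.0.16 (R 4.3.3) by estimateDisp and glmQLFit and tested by glmQLFTest, over all 5011 genes with Benjamini-Hochberg adjustment. A transcript rose or fell if the adjusted p was below 0.05 and the fold above 2. The standard error is the absolute log2 fold change over the square root of F. The scripts were tested on simulated data. Counting floors cover counting error only. Symbols were matched to R64 for 5000 genes, and to synonyms for 9, and 19 had no match.

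The members and all gene lists were chosen with earlier results of these data known. Given in full are the 14 ATG transcripts with the largest change among those called, the 3 with the largest decrease, and ATG1, ATG8 and ATG9. From each other list the called genes and the extremes are named, with divergent neighbours of members given in full. UME6, VPS30, APE4, PHM7, GDB1, CSS2, ILS1, NMD3, the pairs of genes compared per kilobase and the promoters printed were chosen after values were seen. 1 promoter is not reported here. The alternatives were scaling by library size alone, RLE or upper-quartile factors, DESeq2 1.42.0, no filter on low counts, each library left out, the replicate number as a block, a fold of 1.5, and glmTreat. Leaving out ATG41 from the sum, and leaving out 2 libraries together, were added after seeing the data.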

Additional observations from a re-analysis of the deposited data

How the results depend on the processing

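The count of ATG transcripts that rose more than 2-fold was 17 under RLE factors, upper-quartile factors, DESeq2 and no filter on low counts, 18 under library size alone and 16 to 17 when 1 library was left out, where the 16 came without NoSucrose replicate 1. It was 22 at a fold of 1.5 and 21 by glmTreat against 1.5. In every one of these settings 0 fell, and 1 was lower in every setting run for that count. Those higher at any fold numbered 26 to 28 over the settings.

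Scaling by library size alone moved the median of all genes from 0.03 to 0.14, and calls over all genes from 635 risen and 302 fallen to 733 and 201. Under it the median of the ATG genes was 1.19 and the log2 difference of their summed CPM 1.24, in place of 1.07 and 1.12. Without ATG41 the latter was 0.83, a member being removed by construction. Under library size alone ATG5 (0.074), ATG11 (0.072) and CPS1 (0.090) were above 0, and CPS1 was at 0.014 with Sucrose replicate 1 and NoSucrose replicate 3 left out together, where ATG41 was at 4.34 in place of 3.61. Leaving out 1 library at a time gave -0.088 to 0.13 for ATG15 and -0.096 to 0.045 for CPS1. The cause of these sign changes was not tested, and none of these values passed the test. Of the alternatives for single ATG genes, 407 kept direction and side of the threshold, 4 changed sign, 4 passed it newly (all ATG13) and 1 no longer passed (ATG38).

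With the replicate number as a block, 17 rose, 28 were higher and the median was 1.07. Same-numbered samples had deviations correlated at -0.137, -0.00221 and 0.0407 for numbers 1, 2 and 3. Samples of unlike number ran from -0.327 to 0.27. Deviations from means of 3 samples are too few to decide whether same-numbered cultures were paired. The block changed no call of an ATG gene but that of ATG13 (0.15, edgeR adjusted p = 0.0314).

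With 3 libraries against 3 and a common biological coefficient of variation of 0.0708, depth limited ATG10 most, with 86 counts in its lowest library. Filtration and transfer accompanied the loss of sucrose in every NoSucrose culture, 1 time point was sampled, and levels of RNA say nothing of protein or of autophagic flux.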

Other observations

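Genes divergently transcribed from ATG genes described in full, and some genes on the same strand, are given here as values, with distances between coding sequences. Among the divergently transcribed neighbours, TRM3, a tRNA methyltransferase gene 359 bases from ATG20, had a log2 fold change of -0.96 (SE 0.07), LRO1, an acyltransferase gene 281 bases from ATG3, one of -0.29 (SE 0.04), and GON7, 471 bases from ATG36, one of -0.55 (SE 0.05). YMR160W, divergent from ATG16, was not analysed here. The splicing factor gene SQS1, 270 bases from ATG4, was at 0.38 (SE 0.03) and REV3, which encodes a DNA polymerase subunit and lies 230 bases from ATG29, at 0.42 (SE 0.05). PDR5, a drug exporter gene 1551 bases from ATG40, had 0.07 (SE 0.16). Beside the members that did not rise, the ribosomal protein gene RPL17B, 688 bases from ATG27, was at -1.13 (SE 0.06) and the acetyltransferase gene MAK3, 286 bases from ATG11, at -0.47 (SE 0.07). On chromosome XV, a set singled out after its values were seen, PHM7, ATG34 and ATG19 follow each other on 1 strand. PHM7 had mean levels of 4.21 CPM in Sucrose and 400.3 CPM in NoSucrose, a log2 fold change of 6.56 (SE 0.29), beside 1.92 for ATG34 and 1.23 for ATG19. ATG34 begins 382 bases after PHM7 ends. Other genes upstream of an ATG gene on the same strand went either way. GDB1, 563 bases before ATG13, which did not pass the test, was at 3.03 (SE 0.14). CSS2, 1376 bases before ATG18, was at 1.10 (SE 0.09). ILS1, 311 bases before ATG8, was at -0.748 (SE 0.065), and NMD3, 328 bases before ATG7, at -1.015 (SE 0.105). A link between neighbours was not tested.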
